A study of Homo sapiens with 6 samples.

Results

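The genes described here encode acyl-CoA synthetases, the enzymes that attach coenzyme A to a fatty acid, together with relatives that take up or activate fatty acids. Of 10 genes listed, those whose symbol the platform annotation gives as the only symbol of a probe set were kept. Among the 14812 genes measured 6 were members: ACSL1, ACSL4, ACSL5, ACSL6, ACSBG1 and ACSM3. The other 4, ACSL3, SLC27A2, SLC27A4 and SLC27A5, were not analysed here. A gene was to be represented by the probe set with the highest mean over the 6 arrays, and each of the 6 members had 1 probe set. The probe sets were thus selected on mean level, and the family was chosen by values of these same arrays, with the large difference of ACSL5 already known, so the members are no sample of the genes that changed.

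The data are 6 Affymetrix whole-transcript arrays of RNA from HuH7 cells, a human hepatoma line. In 3 samples the cells had received a control gapmer and in 3 a gapmer against EGOT, a long noncoding RNA, at 50 pmol a well. A gapmer is an oligonucleotide whose modified ends lie around a stretch of DNA, which recruits RNase H to cut the RNA it pairs with. All 6 samples, the controls included, also carried a plasmid expressing PKR, an antiviral kinase, and were given poly I:C, which mimics viral double-stranded RNA. RNA was taken 36 hours later. The design therefore holds 1 cell line, 1 control gapmer, 1 gapmer directed to EGOT and no cells without PKR and poly I:C. Whether the replicates are separate cultures is not stated in the labels, and p-values therefore reflect only the spread of these samples, part or all of which may be technical. The gapmers are shown because they are the only difference between the groups. They were directed to these sequences, as the labels write them:
EGOT gapmer: agagacacttagaaga
control gapmer: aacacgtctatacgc

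A fatty acid must be joined to coenzyme A before a cell can oxidise it, store it in triglyceride or build it into membrane lipids. The long-chain enzymes, ACSL, sit on the endoplasmic reticulum, the mitochondrial outer membrane, peroxisomes or lipid droplets and differ in the chains they prefer, so they are thought to steer fatty acids to different fates. The bubblegum enzymes, ACSBG, act on long and very long chains, the ACSM enzymes act on medium chains in the mitochondrial matrix, and the SLC27 proteins couple uptake to activation. ACSM3 is thus a medium-chain enzyme within a group named for long chains. In liver ACSL1 is the best known long-chain enzyme, and ACSL5 is most abundant in the intestinal lining and is also made by hepatocytes.

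ACSL5 rose and ACSM3 rose with the EGOT gapmer, whereas ACSL1, ACSL4, ACSL6 and ACSBG1 did not pass the test. ACSL5 was 2.04-fold higher and ACSM3 1.44-fold higher. Thus 2 of 6 members rose and 0 fell, where 8.41% of all genes tested passed in either direction, 5.2% higher and 3.21% lower (limma, Benjamini-Hochberg adjusted p under 0.05 over 14812 genes). With 1 array left out, from 9 genes (without control gapmer replicate 2) to 579 (without EGOT gapmer replicate 1) passed in place of 1245. The median log2 difference of the 6 members was -0.0050, against 0.0372 for all genes. EGOT itself read 6.29, 6.79 and 6.71 with the control gapmer and 4.91, 4.90 and 4.69 with the EGOT gapmer, so the gene targeted was lower in every array labelled as depleted. The reading of EIF2AK2, the gene for PKR, fell by 0.57 on the log2 scale, with an adjusted p of 0.0119 by limma. That call was lost without control gapmer replicate 1, 2 or 3, where the adjusted p was 0.0605, 0.064 and 0.0616 by limma. All 6 samples carried the PKR plasmid, so the reading may hold plasmid RNA beside that of the cells' own gene, and these were not told apart. The part of EIF2AK2 in the members' differences was not tested. Levels and differences throughout are on the log2 scale of the deposited values, where a difference of 1 is a doubling, and a level says nothing across genes because each probe set binds differently.

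**Figure D1:**
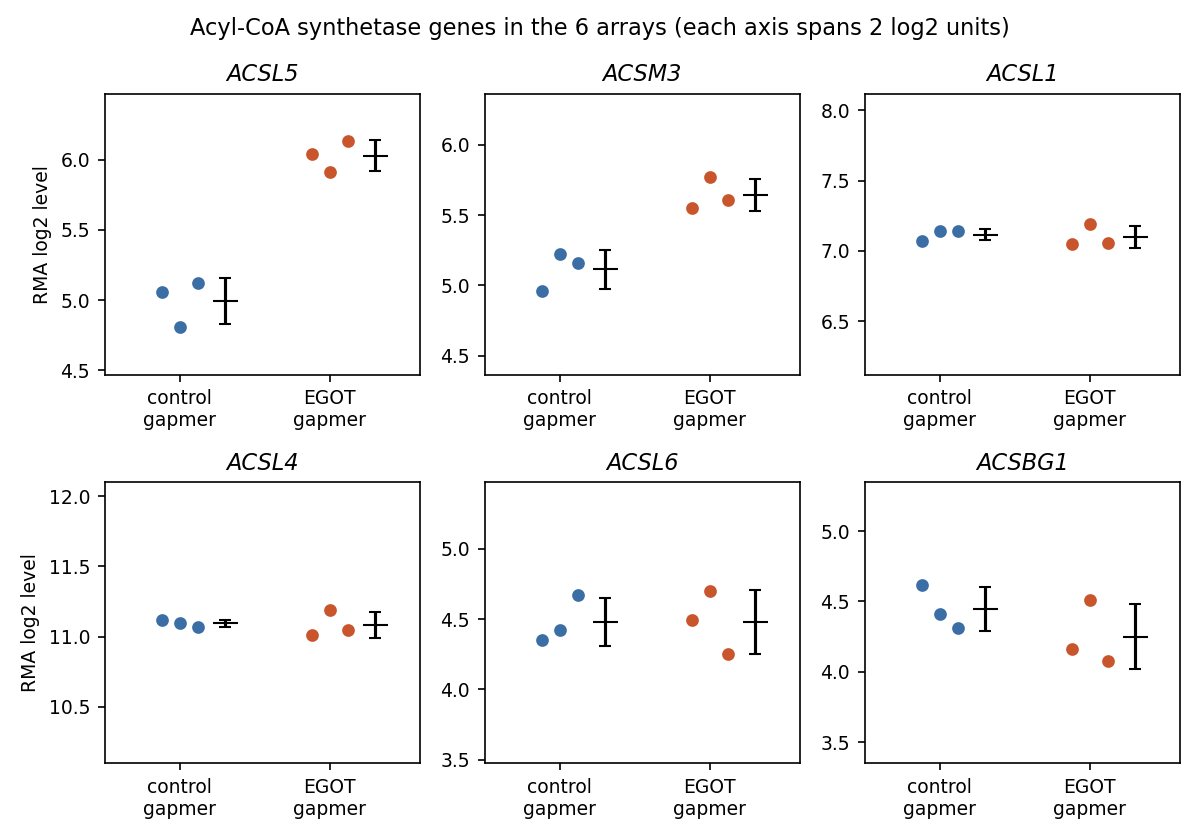
RMA log2 level (vertical axis) of the 6 measured members in the 3 control gapmer arrays (blue) and the 3 EGOT gapmer arrays (orange), with the mean and SD of each group in black. ACSL5 and ACSM3 have groups that do not overlap, and the other members' groups do.

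ACSL5 encodes a long-chain synthetase of the mitochondria and endoplasmic reticulum. Its log2 level was 5.06, 4.81 and 5.12 in control gapmer replicates 1 to 3 and 6.04, 5.91 and 6.13 in EGOT gapmer replicates 1 to 3. Every EGOT gapmer array lay above every control array, with 0.797 between the highest control and the lowest EGOT gapmer value. The group levels were 5.00 ± 0.162 and 6.03 ± 0.107 (SD, n = 3 each). The log2 difference was 1.03 (SE 0.104) with a 95% interval of 0.78 to 1.28, or 1.72-fold to 2.42-fold (limma adjusted p = 0.00851). It was the 6th largest rise among the 14812 genes and the 20th largest difference in either direction. The 9 pairings of an EGOT gapmer array with a control array gave differences from 0.80 to 1.32. A two-sided exact permutation test of the 6 levels gave p = 0.1, the smallest that 3 arrays against 3 allow. All 3 control arrays read ACSL5 below the median of their probe sets, in the range where background compresses differences. Without control gapmer replicate 2, the lowest of the controls, the log2 difference was 0.94 and no longer passed (limma adjusted p = 0.0562); in that comparison 9 of 14812 genes passed in all. Leaving out any other array kept the call. Because whole cultures were measured, more cells making ACSL5 and more ACSL5 RNA per cell cannot be told apart.

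Markers of intestinal lining cells, in which ACSL5 is abundant, were split. Of 6 measured enterocyte markers 3 rose, where 5.2% of all genes did: APOA4, an apolipoprotein gene, by 0.85 on the log2 scale, SI, the sucrase-isomaltase gene, by 0.76, and VIL1, which encodes the microvillus protein villin, by 0.30. These calls were not steady: with 1 array left out none of the 3 passed in 4 of the 6 cases. These are control gapmer replicates 1, 2 and 3 and EGOT gapmer replicate 3, where 58, 9, 34 and 156 of all 14812 genes passed. Over the 15 alternatives APOA4 passed in 7, SI in 9 and VIL1 in 4, with limma adjusted p up to 0.11, 0.0634 and 0.133. The other 3 did not pass. The intestinal transcription factor genes CDX1 and CDX2 had log2 differences of 0.01, just below 0 after either further normalization, and -0.11 (limma adjusted p = 0.981 and 0.694), and LCT, the lactase gene, one of 0.03 (limma adjusted p = 0.883). LCT read below the array median in all 6 arrays, so a change in it could be missed, and SI did so in the 3 control arrays. The mean log2 level of the list ran from 5.91 to 5.96 in the control arrays and from 6.18 to 6.37 in the EGOT gapmer arrays. Of 5 leukocyte markers CD68 and LYZ rose, by 1.06 and 0.57 on the log2 scale, passing in 13 and 10 of 15 alternatives. CD2, CSF1R and CD14 did not pass, at 0.34, 0.24 and -0.06 (limma adjusted p = 0.229, 0.465 and 0.736). The mean of the leukocyte list ran from 6.48 to 6.64 in the control arrays and from 6.92 to 7.12 in the EGOT gapmer arrays. Of 13 hepatocyte markers 1 rose, APOA1, which passed in 4 of 15 alternatives and lost its call with any 1 array left out, and the mean ran from 11.82 to 11.86 and from 11.84 to 11.90, with ALB and AFP read strongly in every array. Of 5 endothelial and 3 fibroblast markers 0 passed by limma, 0 of them also at an unadjusted p under 0.05. The part of these markers in the rise of ACSL5 was not tested.

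ACSM3 encodes a medium-chain acyl-CoA synthetase of mitochondria. Its log2 level was 4.96, 5.22 and 5.16 with the control gapmer and 5.55, 5.77 and 5.61 with the EGOT gapmer. The groups did not overlap and were 0.333 apart at their nearest values. Of all genes, 31.7% had groups that did not overlap, and 20.2% had such groups with the EGOT gapmer higher, beside 2 of the 6 members. The group levels were 5.12 ± 0.134 and 5.64 ± 0.113 (SD, n = 3 each), and the log2 difference was 0.53 (SE 0.0979) with a 95% interval of 0.30 to 0.76 (limma adjusted p = 0.0269). It ranked as the 241st largest rise. The call was less steady than that of ACSL5. It was lost without control gapmer replicate 1 (0.45, limma adjusted p = 0.0802), replicate 2 (0.58, 0.0804) or replicate 3 (0.55, 0.0862), and without EGOT gapmer replicate 2 (0.47, 0.0600) or replicate 3 (0.55, 0.0716). In these cases 58, 9, 34, 505 and 156 of all 14812 genes passed. The ACSM3 call was also lost when every probe set of the table, unnamed ones included, was tested (limma adjusted p = 0.0830), where 0.452% of all genes passed.

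**Figure D2:**
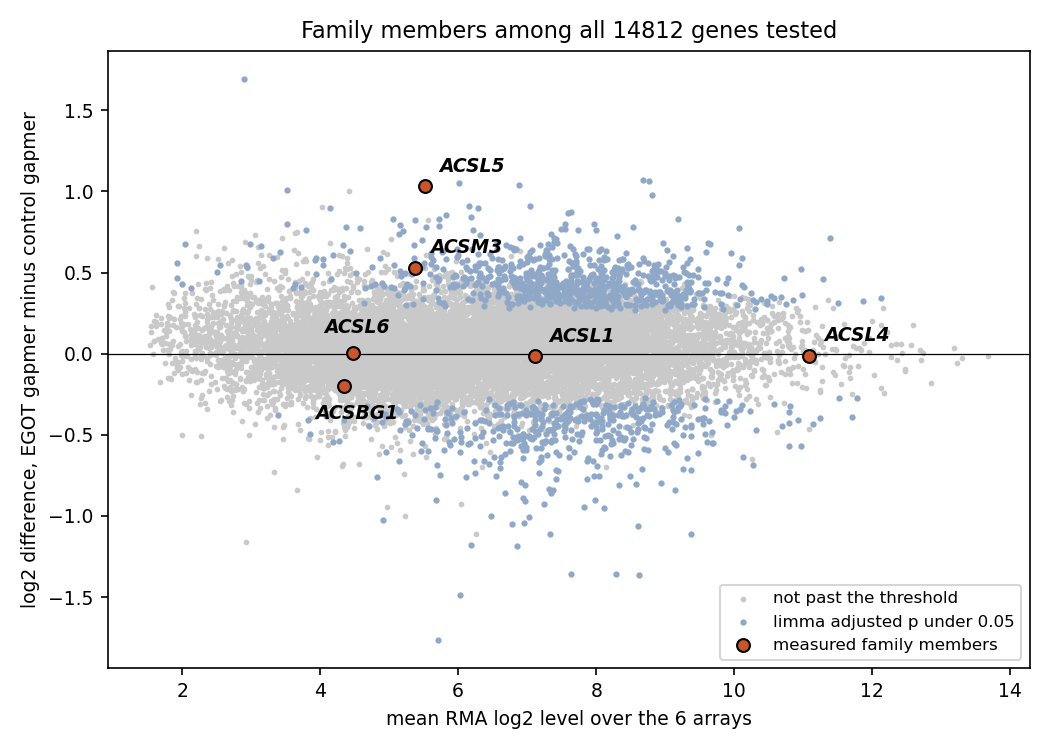
Log2 difference, EGOT gapmer minus control gapmer (vertical axis), against the mean RMA log2 level over the 6 arrays (horizontal axis) for all 14812 genes, with the 6 members in orange. ACSL5, at 1.03, lies near the upper edge of all genes and ACSM3, at 0.53, among the genes past the threshold, while ACSL1, ACSL4 and ACSL6 lie near 0.

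ACSL1, which supplies fatty acids to oxidation and to triglyceride synthesis in liver, read 7.07, 7.14 and 7.14 with the control gapmer and 7.05, 7.19 and 7.06 with the EGOT gapmer. The groups overlapped, and the log2 difference was -0.02 with a 95% interval of -0.19 to 0.15 (limma adjusted p = 0.924). The interval spans 0.880-fold to 1.11-fold, so a change of the size seen in ACSL5 lay outside it. ACSL4, which prefers arachidonic acid and other polyunsaturated chains, was bright on every array, at 11.12, 11.10 and 11.07 with the control gapmer and 11.01, 11.19 and 11.05 with the EGOT gapmer. The control values lay inside the range of the EGOT gapmer values. Its log2 difference was -0.01 with a 95% interval of -0.19 to 0.16 (limma adjusted p = 0.944). Among the EGOT gapmer arrays replicate 2 gave the highest level of ACSL1, ACSL4, ACSL6, ACSBG1 and ACSM3 and the lowest of ACSL5, and its median over all probe sets was also the highest of the 6, at 5.23.

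ACSL6 and ACSBG1, genes best known from brain, were dim. Both read below the array median in all 6 arrays, so a change in either could be missed. ACSL6 read 4.35, 4.42 and 4.67 with the control gapmer and 4.49, 4.70 and 4.25 with the EGOT gapmer, and its log2 difference was 0.0018 with a 95% interval of -0.32 to 0.32 (limma adjusted p = 0.995). ACSBG1 read 4.62, 4.41 and 4.31 with the control gapmer and 4.16, 4.51 and 4.08 with the EGOT gapmer. In ACSBG1 2 of the 3 EGOT gapmer arrays lay below all controls and replicate 2 lay among them. Its log2 difference was -0.20 with a 95% interval of -0.51 to 0.12 (limma adjusted p = 0.428).

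The response of ACSL5 was also set against that of the other ACSL genes within each array, which removes any shift shared by the whole array. The log2 level of ACSL5 relative to ACSL1 rose by 1.05 from the control to the EGOT gapmer, relative to ACSL4 by 1.04 and relative to ACSL6 by 1.03. The groups did not overlap in any of these 3 comparisons, and each gave a two-sided exact permutation p = 0.1, also 0.1 after Benjamini-Hochberg adjustment over the 3, the smallest value possible. ACSM3 was set against the other medium-chain genes measured in the same way. Relative to ACSM1, ACSM2B, ACSM4, ACSM5 and ACSM6 it was higher by 0.52, 0.60, 0.44, 0.70 and 0.50, with no overlap of groups in any of the 5 and an exact permutation p = 0.1 for each, before and after adjustment over the 5. ACSM1, ACSM4 and ACSM6 read below the array median in all 6 arrays, so a change in them could be missed. These designs cannot reach 0.05. They reuse the ACSL5 and ACSM3 values given above, set against genes already seen not to pass. The lack of overlap was thus largely fixed beforehand and is no separate evidence.

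The start sites of ACSL5, ACSL1 and ACSL4 are shown because ACSL5 passed the test and ACSL1 and ACSL4 did not. Promoters came from the RefSeq table of GRCh38.p14, which held 9 of the 10 listed genes and gave ACSL5 2 starts that lie 937 bases apart. The 250 bases before each start are printed 5′ to 3′ on the strand of the gene. Capitals mark matches, on either strand, to any of 10 motifs: the TATA box TATAAA, the CCAAT box (the letters of its name), the GC box GGGCGG, the E-box CACGTG, TCACNCCAC for SREBP, TGATGNAAT for ATF4, CAAAGTCCA for HNF4, the direct repeat element of PPAR, the core of the interferon response element and the palindromic HNF1 site. ACSL5 lies on chromosome 10, ACSL1 on chromosome 4 and ACSL4 on the X chromosome, at chr10:112375018-112375267 and chr10:112375955-112376204 on the plus strand for ACSL5, chr4:184825969-184826218 on the minus strand for the first ACSL1 entry and chrX:109733258-109733507 on the minus strand for ACSL4.
ACSL5, start 1: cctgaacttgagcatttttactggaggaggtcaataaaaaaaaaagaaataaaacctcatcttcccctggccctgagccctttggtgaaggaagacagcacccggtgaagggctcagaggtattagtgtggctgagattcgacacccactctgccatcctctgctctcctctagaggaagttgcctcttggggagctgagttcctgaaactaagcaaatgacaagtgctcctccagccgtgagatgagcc
ACSL5, start 2: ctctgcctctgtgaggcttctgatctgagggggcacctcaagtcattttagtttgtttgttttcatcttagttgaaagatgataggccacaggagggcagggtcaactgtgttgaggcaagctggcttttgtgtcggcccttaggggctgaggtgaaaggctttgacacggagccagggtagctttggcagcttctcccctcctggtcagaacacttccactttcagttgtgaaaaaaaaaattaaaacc
ACSL1, start 1: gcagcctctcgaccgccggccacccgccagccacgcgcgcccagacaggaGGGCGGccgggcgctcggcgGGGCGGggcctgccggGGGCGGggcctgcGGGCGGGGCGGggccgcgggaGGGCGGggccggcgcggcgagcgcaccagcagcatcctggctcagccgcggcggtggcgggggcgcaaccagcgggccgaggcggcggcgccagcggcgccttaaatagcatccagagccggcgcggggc
ACSL4: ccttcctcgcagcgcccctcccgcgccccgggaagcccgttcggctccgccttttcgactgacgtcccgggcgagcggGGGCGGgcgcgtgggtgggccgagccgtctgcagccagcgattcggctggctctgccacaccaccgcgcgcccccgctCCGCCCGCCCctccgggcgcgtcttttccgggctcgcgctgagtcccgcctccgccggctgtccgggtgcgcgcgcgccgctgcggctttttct

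Neither ACSL5 window held a match to any of the 10 motifs. The window of ACSL1 start 1 held 6 matches to the GC box, of which 2 overlap, and the ACSL4 window held 3, of which 2 overlap. Of all 35116 RefSeq promoter windows, 42.6% had a GC box, 32% a CCAAT box, 10.7% a TATA box, 6.34% the E-box, 3.02% the interferon motif, 0.888% the ATF4 motif, 0.883% the SREBP motif, 0.325% the HNF4 motif, 0.0171% the PPAR motif and 0.0057% the HNF1 motif. The bases G and C made up 50% and 48.8% of the ACSL5 windows, 83.6% of the window of ACSL1 start 1 and 77.2% of the ACSL4 window, against a median of 58% over all promoters. These matches describe letters in a window of 250 bases and do not locate binding. ACSL1 has 5 starts in the table. Starts 2, 4 and 5 held no match, as in ACSL5, at 51.2%, 61.2% and 46.8% G and C. Start 3, at 60% G and C, held a GC box, a CCAAT box and the SREBP motif. Which starts HuH7 cells use was not measured.

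The nearest measured protein-coding genes on each side of ACSL5 and ACSM3 in the RefSeq table were examined after the values of those members had been seen. Genes that were not measured were skipped, so others may lie between those named. The nearest measured protein-coding gene on the higher-coordinate side of ACSL5 is VTI1A, which encodes a SNARE protein of Golgi and endosome traffic, and it moved the opposite way. VTI1A read 7.37, 7.36 and 7.39 with the control gapmer and 6.54, 6.50 and 6.66 with the EGOT gapmer. Its groups did not overlap, and it fell by 0.81 on the log2 scale with a standard error of 0.0714 (limma adjusted p = 0.00807). Like ACSL5 it no longer passed without control gapmer replicate 2 (-0.81, limma adjusted p = 0.0562). Over the 15 alternatives the difference of VTI1A ran from -0.85 to -0.64 and passed in 13. The next measured protein-coding gene on that side, HABP2, which encodes a plasma protease, was at a log2 difference of -0.13, which did not pass (limma adjusted p = 0.301). On the other side TECTB and ADRA2A had differences of 0.06 and 0.08 that did not pass (limma adjusted p = 0.773 and 0.813), both dim in all 6 arrays, and both turned negative when the trend on gene span was removed or EGOT gapmer replicate 2 was left out.

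ACSM3 lies among its relatives, and its annotated span overlaps those of ACSM1, THUMPD1 and ERI2, so which of these transcripts a probe set reads cannot be settled from the table. ERI2, an exonuclease gene, read 7.44, 7.50 and 7.30 with the control gapmer and 7.70, 7.79 and 7.63 with the EGOT gapmer. THUMPD1, an RNA acetylation adaptor gene, read 7.55, 7.68 and 7.68 and then 7.94, 7.99 and 7.83. In each of these neighbours the groups did not overlap, but the differences of 0.29 and 0.28 did not pass (limma adjusted p = 0.0772 and 0.0746). ACSM1 and ACSM2B, medium-chain synthetase genes on the other side, had differences of 0.01 and -0.07 with overlapping groups (limma adjusted p = 0.968 and 0.704). That of ACSM1, dim in all 6 arrays, was -0.01 after another quantile normalization and -0.0046 after cyclic loess. THUMPD1 and ERI2 passed in 2 of 15 alternatives each, with only the brighter genes tested and with a variance trend.

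**Figure D3:**
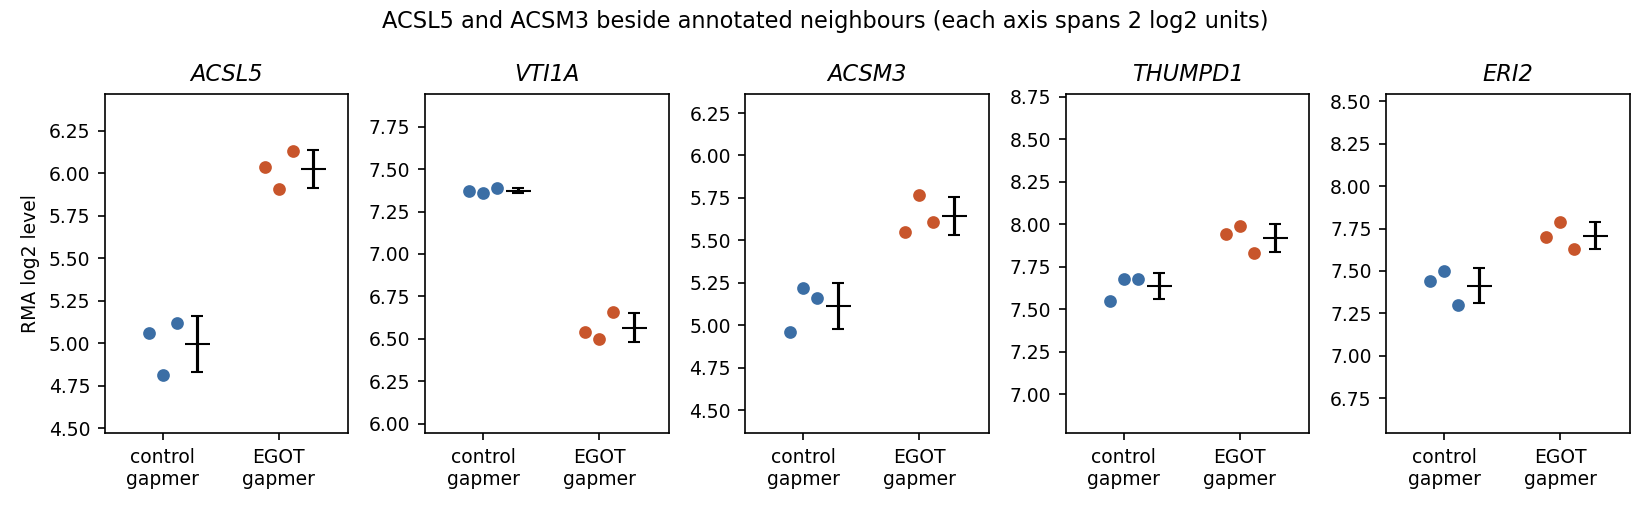
RMA log2 level (vertical axis) of ACSL5 and its neighbour VTI1A, and of ACSM3 and the overlapping genes THUMPD1 and ERI2, in the control gapmer (blue) and EGOT gapmer (orange) arrays with the mean and SD of 3 arrays in black. VTI1A falls by 0.81 where ACSL5 rises by 1.03, and THUMPD1 and ERI2 shift by 0.28 and 0.29 without passing.

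Genes whose 6 values ran most like those of a member were found by the root mean square distance between levels after each gene's own mean was subtracted. Nearest to ACSL5 were TSPYL2, a nucleosome assembly gene, at a distance of 0.0985, CD68, a lysosomal glycoprotein gene, at 0.113, and AQP3, a water and glycerol channel gene, at 0.125. Nearest to ACSM3 were PAIP1, which encodes a partner of the poly(A)-binding protein, at 0.0124, the mitotic kinase gene NEK2 at 0.0351 and UQCRHL, of the respiratory complex III hinge proteins, at 0.0406. PAIP1, NEK2 and UQCRHL, like ACSM3, had their lowest control value in replicate 1 and their highest EGOT gapmer value in replicate 2. With 6 arrays in 2 groups such likeness rests mostly on the shared difference between groups.

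The rest of the acyl-CoA pathway was described from 8 lists covering 181 genes, of which 115 were measured. Of these, 12 rose and 2 fell, or 12.2%, against 8.41% of all genes. The median log2 difference of the 115 was 0.07. The count, like that of all genes, rested on the full set of arrays. Leaving out control gapmer replicate 1, 2 or 3 gave 1, 0 or 1 calls, where 0.392%, 0.0608% and 0.23% of all genes passed. Leaving out EGOT gapmer replicate 1, 2 or 3 gave 5, 3 or 1, where 3.91%, 3.41% and 1.05% of all genes passed. At 0 calls without control replicate 2, 32 of the 115 had an unadjusted p under 0.05 by limma, against 41 in the full set. Of all genes 20% and 25% did. With the trend on gene span removed 5 passed, and when every probe set was tested 1 did, where 4.62% and 0.452% of all genes passed.

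None of 13 other acyl-CoA synthetases passed, and 2 had an unadjusted p under 0.05 by limma. Of all genes 8.41% passed and 25% had an unadjusted p under 0.05. The nearest was ACSS2, the cytosolic enzyme that activates acetate, which read 8.48, 8.42 and 8.31 with the control gapmer and 8.63, 8.89 and 9.03 with the EGOT gapmer. Its groups did not overlap, and its log2 difference of 0.45 missed the threshold (limma adjusted p = 0.0553). It passed without EGOT gapmer replicate 1 (0.55, limma adjusted p = 0.0400), with a variance trend and with only the brighter genes tested. The list's median was 0.03. Of 4 measured genes of fatty acid uptake and binding 0 passed and 1 had an unadjusted p under 0.05 by limma. That was FABP5, a fatty acid binding protein gene, with a difference of 0.35 (limma adjusted p = 0.0550).

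Of 18 genes for enzymes that split acyl-CoA again, and for proteins that bind it, 2 passed, or 11.1%, near the 8.41% of all genes. ACOT13, a thioesterase gene, rose by 0.33 and ACBD3, a Golgi protein with an acyl-CoA binding domain, by 0.34. The median of the list was 0.02. Each passed in 5 of 15 alternatives, and neither after cyclic loess or with the trend on gene span removed.

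Among genes that use acyl-CoA to make or hold triglyceride 6 passed with all arrays in use. Of 26 measured glycerolipid and lipid droplet genes 21 had a log2 difference above 0, 5 rose and 1 fell, or 23.1% of the list against 8.41% of all genes, a difference for which no test was made. MOGAT3, a monoacylglycerol acyltransferase gene, rose by 0.47, LPIN1, a phosphatidate phosphatase gene, by 0.43, the lipid droplet coat genes CIDEC and PLIN2 by 0.41 and 0.33, and TM6SF2, which takes part in loading lipid onto very low density lipoprotein, by 0.36. FITM2, which encodes a protein needed for droplet budding, fell by 0.39. CIDEC read below the array median in all 6 arrays and passed in 4 of 14 alternatives. PLIN2 read 6.72, 6.65 and 6.78 with the control gapmer and 7.01, 7.12 and 7.01 with the EGOT gapmer, without overlap. The genes for the last step of triglyceride synthesis, DGAT1 and DGAT2, had differences of 0.09 and 0.03 that did not pass (limma adjusted p = 0.469 and 0.857), and that of DGAT2 was below 0 after either further normalization. The list's median was 0.08, against 0.0372 for all genes. With the trend on gene span removed 1 of the list rose and 1 fell, where 4.62% of all genes passed. With any 1 array left out 0 or 1 of the list passed, where 0.0608% to 3.91% of all genes did.

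Of 15 elongase and desaturase genes 1 passed, or 6.67%, against 8.41% of all genes. ELOVL4, which extends very long chains, rose by 0.76 (limma adjusted p = 0.00837). ELOVL4 read 5.82, 5.76 and 5.92 with the control gapmer and 6.63, 6.62 and 6.55 with the EGOT gapmer, and among the arrays left out in turn it lost its call only without control gapmer replicate 2 (0.73, limma adjusted p = 0.0562). Of 11 phospholipid and sterol ester acyltransferase genes 2 passed, or 18.2%. With any 1 array left out 0 or 1 of the 11 did, where 0.0608% to 3.91% of all genes passed. LCAT, the plasma enzyme that esterifies cholesterol, rose by 0.33, and LPGAT1, a lysophospholipid acyltransferase gene, fell by 0.44. The medians of these lists were 0.01 and -0.01.

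Of 14 measured fatty acid oxidation genes 12 had a difference above 0, where 57.8% of all genes did, and the list's median was 0.21. Yet 1 passed, or 7.14% of the list. This was ECI2, an enoyl-CoA isomerase gene, which rose by 0.32 (limma adjusted p = 0.0483). It kept its call in 5 of 15 alternatives. At an unadjusted p under 0.05 there were 8 of the 14 by limma, where 25% of all genes were, and with a variance trend 7 passed, where 17% of all genes did. CPT1A, whose product commits long-chain acyl groups to entry into mitochondria, was at 0.23 and missed the threshold (limma adjusted p = 0.134). A list of regulators, targets and related genes of PPAR and SREBP had 14 measured, of which 2 passed, or 14.3%, against 8.41% of all genes. Regulation of the listed genes by these factors was not tested. TXNIP, which encodes a thioredoxin-binding protein, rose by 0.71 and CREB3L3, a liver transcription factor gene, by 0.34. Each lost its call with any 1 array left out, where 0.0608% to 3.91% of all genes passed. PPARA, PPARD and PPARG had differences of -0.10, -0.03 and -0.17 that did not pass (limma adjusted p = 0.645, 0.860 and 0.181).

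**Figure D4:**
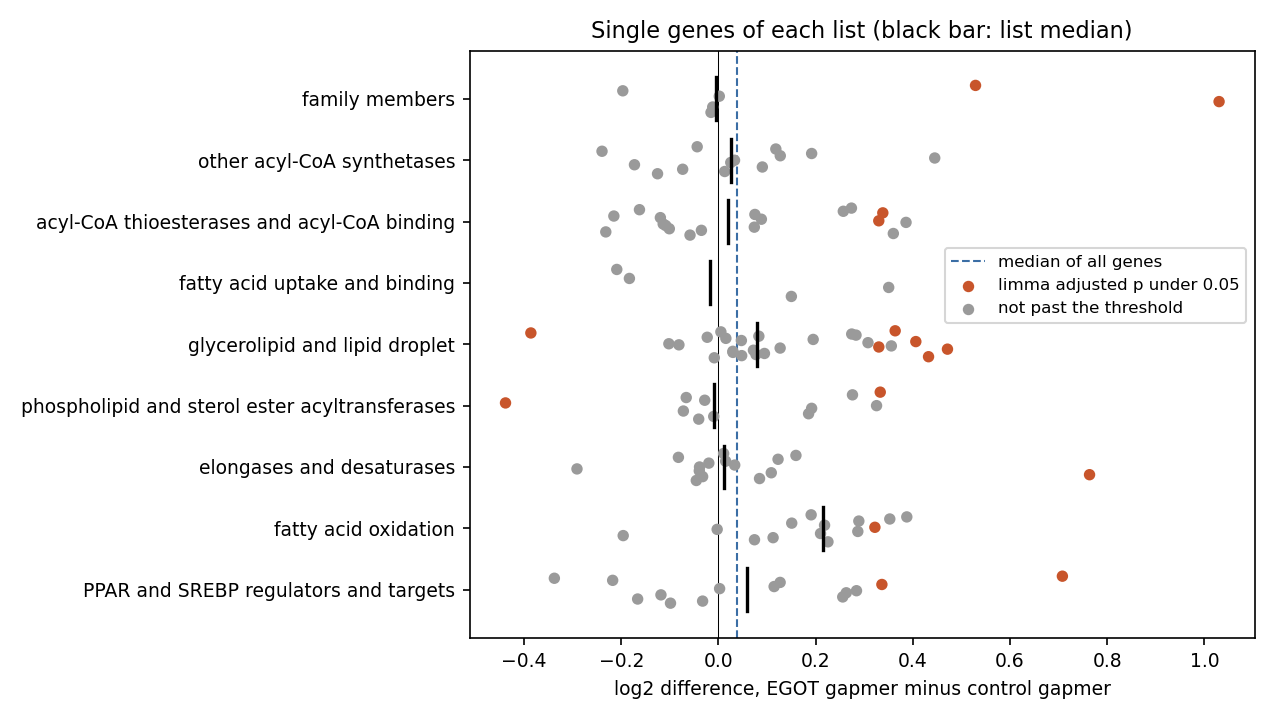
Log2 difference, EGOT gapmer minus control gapmer (horizontal axis), of each measured gene in the family and the 8 pathway lists, in orange where the limma adjusted p is under 0.05. Black bars are list medians and the dashed line is the median of all genes, 0.0372; ACSL5 is the rightmost point, at 1.03.

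**Figure D5:**
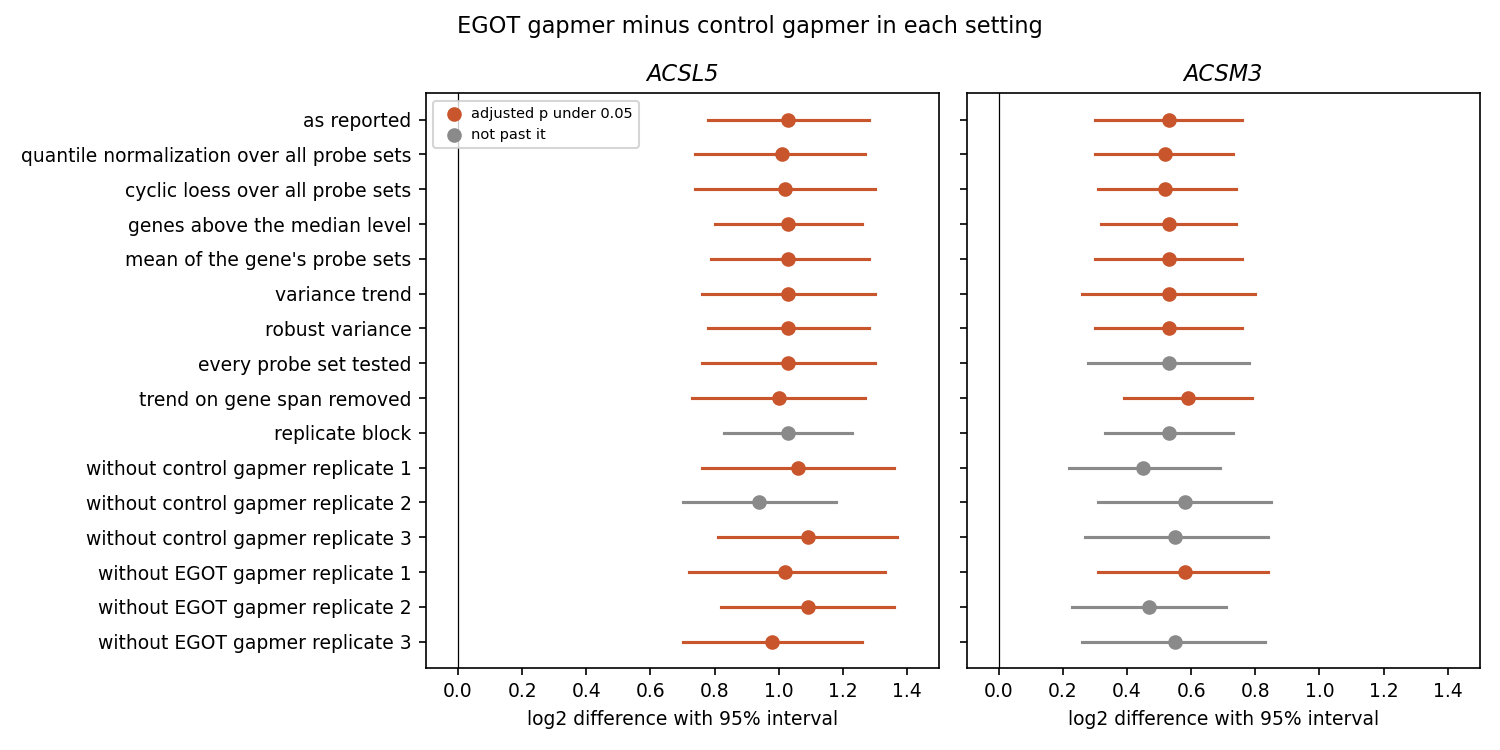
Log2 difference of ACSL5 and ACSM3 with its 95% interval (horizontal axis) as reported and in 15 alternatives (vertical axis), in orange where the limma adjusted p is under 0.05. The differences run from 0.94 to 1.09 for ACSL5, past the threshold in 13 of 15 alternatives, and from 0.45 to 0.59 for ACSM3, past it in 8 of 15.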

How the data were processed

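The deposited table holds log2 levels per probe set. RMA is the tool that the submitters' processing notes name. It subtracts background, forces the probe values of the arrays to 1 distribution and combines each probe set's probes, so a global change in RNA content is hidden. The deposited probe set levels still had array medians from 5.08 to 5.23. Another quantile normalization moved the median log2 difference of all genes from 0.0372 to 0.00375. The version of RMA and any filter: not given in the sources used here. Values ran from 1.05 to 14.1. Probe sets to which the platform annotation gave several gene symbols were left out of the named ones. Of 44629 probe sets 15835 kept a single symbol, giving 14812 genes. A gene named only on a probe set with several symbols therefore counts as not measured. Groups were compared with limma 3.58.1 in R 4.3.3 (lmFit, eBayes, two-sided, Benjamini-Hochberg over all genes, threshold 0.05). Single values were tested with scipy 1.17.1 by exact permutation over the 20 assignments of the 6 arrays. The fit was tested on simulated data. The number of arrays limits precision.

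Members, lists and rules were chosen with earlier results of these data known. Named are every member; of each pathway list the genes that passed, or, where 0 did, the 1 with the smallest p; and the 3 genes nearest in pattern to each member that passed. ACSS2 and FABP5 follow from this rule, whereas DGAT1, DGAT2, CPT1A, the PPAR genes, single markers and neighbours were named after their values were seen. Alternatives changed scaling, filter, probe set rule, variance model, features tested, the trend on gene span, the replicate number as a block, and the arrays used; ACSM3 was added to the main results after seeing the data.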

Additional observations from a re-analysis of the deposited data

How the results depend on the processing

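The directions of ACSL5 and ACSM3 held in all 15 alternatives. With the replicate number as a block, which the labels do not tie to a shared batch, 0 of 14812 genes passed by limma (3438 at an unadjusted p under 0.05), so 0 members and 0 of the 115 pathway genes did (2 and 37 unadjusted). ACSL5 was then at 1.03 (limma adjusted p = 0.0543) and ACSM3 at 0.53 (limma adjusted p = 0.0634). Same-numbered arrays correlated at -0.0307, -0.054 and 0.0394 in their deviations from group means, and 1 of 6 samples correlated best with its own number. With every probe set tested ACSM3, at 0.53, no longer passed, which left 1 member and 1 pathway gene past the threshold, beside 0.452% of all genes. Pathway calls numbered 28 with only genes above the median level, 33 with a variance trend and 5 once the gene span trend was removed, while calls over all genes went from 8.41% to 20.4%, 17% and 4.62%. With 1 array left out, members past the threshold ranged from 0 to 2, pathway calls from 0 to 5, ACSL5 from 0.94 to 1.09 and ACSM3 from 0.45 to 0.58. Calls over all genes then ranged from 0.0608% to 3.91%.

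Differences near 0 changed sign without any call. ACSL1 lay between -0.059 and 0.01 and ACSL4 between -0.063 and 0.022 with 1 array left out, above 0 without EGOT gapmer replicates 1 and 3, and ACSL4 was at 0.016 with the span trend removed. ACSL6 was at -0.021 after quantile normalization, -0.016 after cyclic loess, -0.011 with the span trend removed, and between -0.11 and 0.12 with 1 array left out. ADRA2A was at -0.0039 and TECTB at -0.023 with the span trend removed, and with 1 array left out they ran from -0.094 to 0.25 and from -0.011 to 0.15. ACSM1 was at -0.011 after quantile normalization, -0.0046 after cyclic loess, and between -0.074 and 0.15 with 1 array left out. CDX1 was at -0.0016 after quantile normalization, -0.004 after cyclic loess and -0.082 with the span trend removed, DGAT2 at -0.011, -0.012 and -0.035, and LCT at -0.0031 in the last. With 1 array left out CDX1 ran from -0.056 to 0.062, CDX2 from -0.24 to 0.037, LCT from -0.068 to 0.087, DGAT2 from -0.0082 to 0.065, PPARA from -0.18 to 0.0027 and PPARD from -0.074 to 0.03. Over all genes 1245 passed, 61.8% of them higher, against 50.2% higher after quantile normalization and 48.8% after cyclic loess. Signals of ACSL6 and ACSBG1 below the array medians limit what can be said of them.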
